A study of Mus musculus with 2 samples.

Results

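Type 2 conventional dendritic cells of the mouse retinal pigment epithelium (RPE) and choroid were 58 of 3982 cells in the Il17ra knockout library and 83 of 3418 cells in the flox library, or 141 of 7400 cells in all. Each cell was chosen by its own counts of captured RNA molecules, read from their unique molecular identifiers (UMIs). A barcode counted as a cell with at least 1000 UMIs, at least 300 genes and less than 10% mitochondrial UMIs. It counted as a type 2 dendritic cell with at least 2 UMIs of the lectin genes Cd209a and Clec10a together and at least 10 UMIs of the class II gene H2-Aa. It also had to hold 0 UMIs of Xcr1 and Clec9a (type 1 dendritic cells), of Cd3e (T cells) and of Cd79a (B cells), and fewer than 3 UMIs of F13a1, Chil3, Vcan and Thbs1 together (classical monocytes). Because the cells were selected on these genes, the levels of all their genes are a description of the gated cells and not evidence for the gate.

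The knockout library came from mice labelled as a conditional knockout of the IL-17 receptor gene Il17ra, and the flox library from mice labelled as carrying the floxed gene. All mice had received sodium iodate (NaIO3), an oxidant that damages the RPE, at 20 mg/kg by injection into the abdominal cavity. The RPE and choroid were digested with enzymes, live cells bearing CD45, a surface protein of white blood cells, were sorted, and 1 library of single-cell RNA was made per genotype. Which cells delete the gene, which exons are lost, how many mice were pooled and how long after the injection tissue was taken are not stated in the labels used. With 1 library per group there is no replicate check and no test, so every 95% interval below, in parentheses, covers counting error only.

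Conventional dendritic cells take up antigen in tissues and present it to T cells on class II molecules. Type 2 cells are known in the mouse for priming helper T cells and depend on factors such as IRF4 and KLF4, while type 1 cells depend on IRF8 and BATF3 and present antigen to cytotoxic T cells. Like most cells they carry the receptor for type I interferons, which acts through factors such as IRF9 on a large set of antiviral genes.

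The gate had soft and hard edges. A lectin sum of exactly 2 was held by 3 knockout and 14 flox members, and 7 knockout and 21 flox cells missed the gate with a sum of 1 alone. The monocyte limit alone turned away 23 knockout and 32 flox cells, and the limit on Xcr1 and Clec9a alone 22 and 33, of which 6 and 18 held a single UMI. No member had 10 to 12 UMIs of H2-Aa, and the lowest value in a member was 16. That limit alone turned away 4 knockout and 4 flox cells, of which 0 and 1 held 7 to 9 UMIs. Members had a median of 17482 UMIs (3466 to 35074) and 3994 genes in the knockout library and 17972 UMIs (1611 to 45332) and 4094 genes in the flox library, against medians of 7714 and 8744 UMIs over all cells. The UMI minima of the gate favour deep cells, and gated type 1 dendritic cells (24163 and 24139 UMIs) and classical monocytes (15668 and 15021 UMIs) were also deep. No barcode was shared between the members of the libraries, and 3 were shared among all cells.

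Levels of the markers given for these cells were set beside those of other gated cells, which does not test the label. Beside Cd209a and Clec10a, the marker genes were Dab2, an endocytic adaptor, Ifitm1, an interferon-inducible membrane protein, and Tnip3, an inhibitor of NF-kB signalling. Levels are in CPM (counts per 1000000), the UMIs of a gene scaled to the summed UMIs of the cells named. Dab2 stood at 295 CPM in knockout and 224 CPM in flox members, against 76.0 and 27.0 CPM in type 1 dendritic cells (at least 2 UMIs of Xcr1 and Clec9a) and 22.5 and 13.8 CPM in classical monocytes (at least 3 UMIs of the monocyte genes). Ifitm1 stood at 968 and 479 CPM in members, against 74.3 and 68.9 CPM in type 1 dendritic cells and 25.7 and 66.6 CPM in monocytes. Tnip3 stood at 294 and 380 CPM in members and at 64.1 CPM or less in both other groups. With every cell thinned to 3000 UMIs, Ifitm1 was detected in 32.8% of knockout and 35.8% of flox members, and in 0.333% and 0.181% of B cells, which should lack it.

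Flt3, the receptor for the growth factor of dendritic cells, and Zbtb46, a transcription factor of conventional dendritic cells, were present as well. Flt3 stood at 156 CPM in knockout and 133 CPM in flox members, below the 204 and 201 CPM of type 1 dendritic cells and above the 21.2 and 20.5 CPM of monocytes. Zbtb46 stood at 72.2 and 54.9 CPM in members, against 2.57 and 3.25 CPM in monocytes. Irf8 was low in members, at 136 and 85.6 CPM, against 1119 and 1100 CPM in type 1 cells. Lyz2, the lysozyme gene of myeloid cells, stood at 946 and 752 CPM in members and at 17393 and 16749 CPM in monocytes. Esam, used elsewhere to divide type 2 dendritic cells of the spleen, had no UMI in any member.

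**Figure D1:**
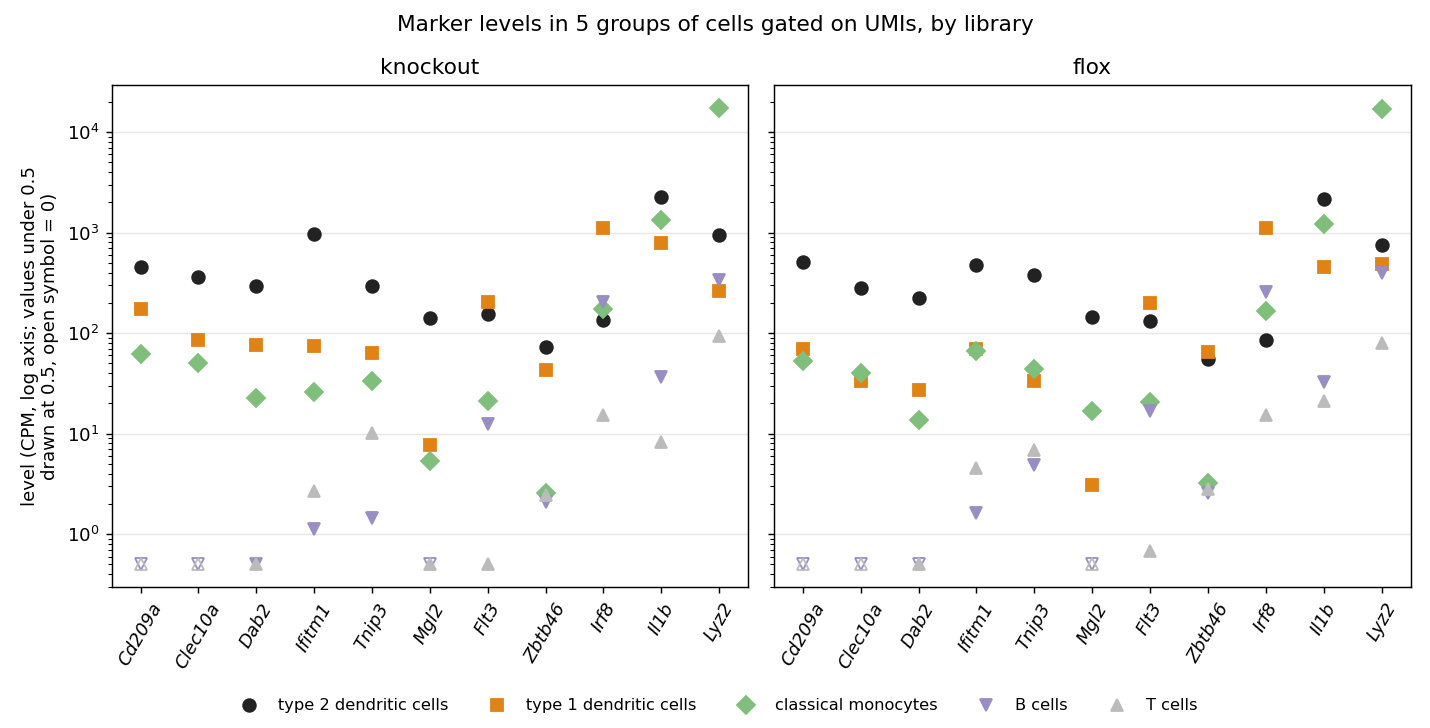
Level of 11 genes in 5 groups of cells gated on UMIs, in CPM on a log axis, with the knockout library on the left and the flox library on the right. In both libraries the black points of the type 2 dendritic cells lie above the other groups for Cd209a, Clec10a, Dab2, Ifitm1, Tnip3 and Mgl2, while Irf8 is higher in type 1 dendritic cells and Lyz2 in monocytes.

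A search over all genes of at least 50 CPM in members of both libraries gave the 15 with the largest excess over both type 1 dendritic cells and monocytes. B cells and T cells were not part of this search. Cd72, a C-type lectin also known from B cells, led it with 189 CPM in knockout and 280 CPM in flox members, at least 9.24-fold above either other group in either library. In B cells Cd72 stood at 157 and 229 CPM. Mgl2, the lectin CD301b, stood at 142 CPM in knockout and 144 CPM in flox members. Epcam, an adhesion molecule, stood at 77.8 and 92.2 CPM. Ltb, which encodes lymphotoxin beta, stood at 56.3 and 69.3 CPM. It was far higher in B cells, at 597 and 531 CPM, and in T cells, at 528 and 459 CPM. Il1r2, the decoy receptor of interleukin-1, stood at 411 and 387 CPM. Tnfsf9, the ligand of the co-stimulatory receptor 4-1BB, stood at 262 and 186 CPM, and Tnf at 80.6 and 64.0 CPM. T cells held Tnf at 121 and 69.6 CPM. Ifitm1, Tnip3, Dab2, Siglece, Stat4, Rrad, Rtn1 and the rule gene Clec10a made up the list, each between 3.16-fold and 6.96-fold at the lowest of its 4 comparisons. Stat4, at 141 and 184 CPM in members, was higher in B cells (304 and 302 CPM) and T cells (447 and 506 CPM).

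Both lectin genes were seen together in 38 of 58 knockout and 43 of 83 flox members. Cd209a alone was seen in 10 knockout and 28 flox members, and Clec10a alone in 10 and 12. Mgl2 was a minority trait: 14 of 58 knockout members (24.1%) and 20 of 83 flox members (24.1%) had a UMI of it, and 6 and 10 had at least 5. Il1b, the gene of interleukin-1 beta, was found in most members. It had a median of 16 UMIs per cell (0 to 255) in knockout members, of which 34 of 58 had at least 5. In flox members the median was 29 UMIs (0 to 142), and 65 of 83 had at least 5. Summed over cells the libraries were close, at 2256 CPM in knockout and 2148 CPM in flox members, a ratio of 1.05 (0.996 to 1.11), so fewer knockout cells held more Il1b UMIs each. B cells, which should lack it, had an Il1b UMI in 2.22% and 2.36% after thinning, against 58.6% and 84.0% of members.

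The members divided along one contrast in both libraries. Ifitm1 and Lyz2 rarely stood in the same cell at 5 UMIs or more: in the knockout library 17 cells had Ifitm1 alone, 20 Lyz2 alone, 2 both and 19 neither, and in the flox library 26, 27, 3 and 27. Cells with Ifitm1 alone carried Kit, the receptor of stem cell factor, at 144 CPM in the knockout and 125 CPM in the flox library, against 0 and 4.15 CPM in cells with Lyz2 alone. Epcam showed the same pattern, with 180 and 200 CPM against 5.50 and 0 CPM. Il1r2 stood at 763 and 806 CPM in cells with Ifitm1 alone, against 110 and 127 CPM. H2-DMb2, which helps load peptides on class II molecules, stood at 321 and 354 CPM against 79.7 and 33.2 CPM. The markers did not all lie at the same end. Dab2 stood at 460 and 352 CPM against 102 and 66.4 CPM in cells with Lyz2 alone. Tnip3 was lower in cells with Ifitm1 alone, at 185 and 196 CPM against 352 and 382 CPM. So were the genes of the gate, Cd209a at 215 and 448 CPM against 632 and 536 CPM, and Clec10a at 253 and 245 CPM against 464 and 353 CPM.

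Cells with Lyz2 alone carried genes shared with monocytes. Ccr2, the chemokine receptor that brings monocytes out of the blood, stood at 1047 CPM in the knockout and 1202 CPM in the flox library, against 188 and 327 CPM in cells with Ifitm1 alone. Cx3cr1, the fractalkine receptor, stood at 283 and 214 CPM against 38.1 and 41.7 CPM, and Csf1r, the receptor of macrophage colony-stimulating factor, at 170 and 255 CPM against 49.0 and 67.1 CPM. Fcgr3, an Fc receptor, stood at 76.9 and 60.2 CPM against 0 and 1.81 CPM. Zbtb46 stood at 70.8 and 65.3 CPM in cells with Ifitm1 alone and 46.7 and 49.8 CPM in cells with Lyz2 alone. These values rested on few UMIs, 26 and 36 against 17 and 24. Flt3 stood at 144 and 143 CPM against 126 and 62.3 CPM. The pair of genes was picked after the values had been seen, and no name is given to either end.

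Spearman's rank correlation with Ifitm1 was taken across the same cells, 58 knockout and 83 flox members, over 2623 genes of sufficient depth. Kit, Epcam, Il1r2, H2-DMb2, Ccr2 and Cx3cr1, given above, are among the 15 genes ranked first at each end. The split and the correlations therefore describe the same counts, and neither is evidence for the other. Ltb (0.50 and 0.51), Lmnb1 (0.63 and 0.44) and Ctnnd2 (0.44 in both) ranked first on the positive side and Emp3 (-0.57 and -0.50), Lyz2 (-0.48 and -0.42) and Ahnak (-0.39 and -0.43) on the negative side, in each case by the value nearer 0. The cells of a library share its depth and its free RNA, and the counts are sparse. After thinning to 3000 UMIs the correlation of Ltb was 0.35 and 0.33, that of Emp3 -0.48 and -0.24, and that of Kit 0.43 and -0.08.

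The marker genes themselves were compared between libraries as a description. Ifitm1 stood at 968 CPM in knockout members and 479 CPM in flox members, a ratio of 2.02 (1.84 to 2.22), yet 19 of 58 knockout members (32.8%) and 29 of 83 flox members (34.9%) had at least 5 UMIs, so the excess lay in the UMIs per positive cell, up to 172 in the knockout and 95 in the flox library. The direction depended on the cells taken: the log2 ratio was -0.90 in female members, 1.07 in male members and -0.076 when cells were thinned to 3000 UMIs before gating, which changed the members (48 knockout and 65 flox cells) as well as the depth. In female knockout members, 49 of the 59 Ifitm1 UMIs came from a single cell. Dab2 had a ratio of 1.32 (1.13 to 1.54), with -0.63 on the log2 scale in female and 0.50 in male members. Tnip3 had a ratio of 0.775 (0.674 to 0.891) over all members. Within each sex the direction was the other way, with 0.48 on the log2 scale in female and 1.96 in male members. As ratios these were 1.39 (1.15 to 1.67) and 4.02 (2.26 to 7.79). Cd209a and Clec10a, the genes of the gate, had ratios of 0.891 and 1.27 over all members. Cd209a had 1.63 (1.39 to 1.91) in female and 0.688 (0.540 to 0.879) in male members. Clec10a had 1.68 (1.35 to 2.09) in female and 0.978 (0.748 to 1.29) in male members.

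**Figure D2:**
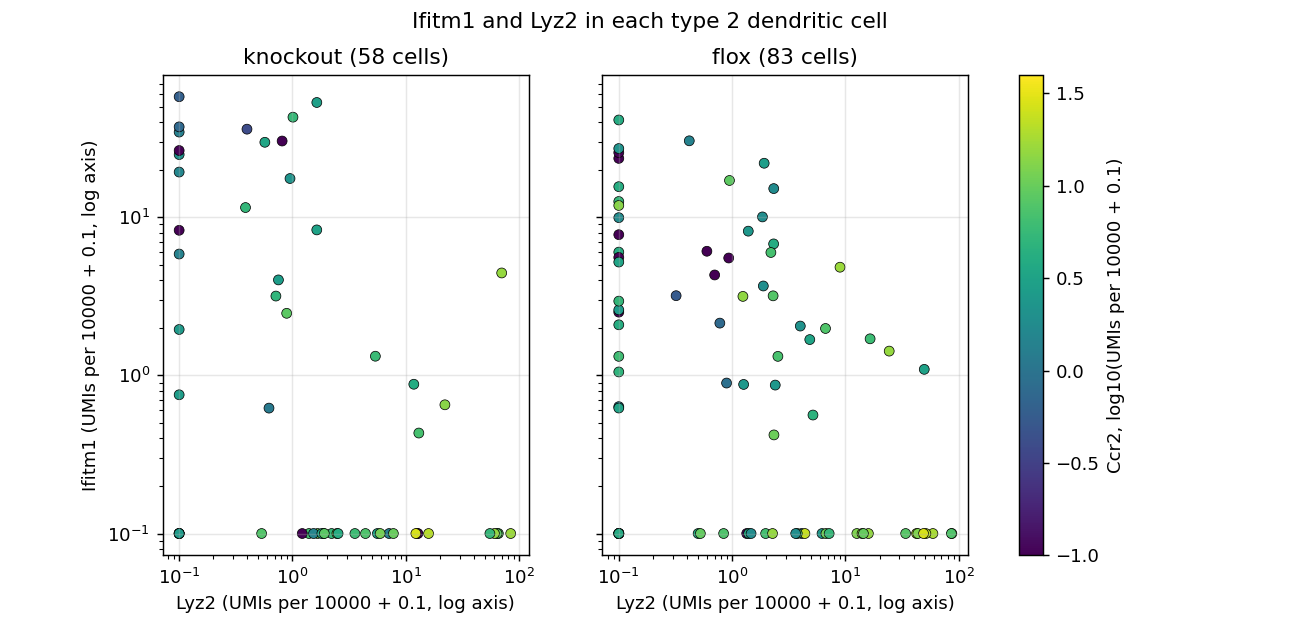
Ifitm1 against Lyz2 in each type 2 dendritic cell, in UMIs per 10000 with 0.1 added, on log axes, for 58 knockout cells on the left and 83 flox cells on the right. Colour gives Ccr2. In both panels the cells lie along the 2 axes, only 2 knockout and 3 flox cells have at least 5 UMIs of both genes, and the cells high in Ccr2 lie toward the right.

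Members made up 1.46% of knockout cells (1.11 to 1.88) and 2.43% of flox cells (1.94 to 3.0), a difference of -0.972 percentage points (-1.63 to -0.344). Type 1 dendritic cells differed the same way, with 1.16% of knockout and 1.90% of flox cells, as did classical monocytes, with 7.71% and 11.9%. B cells stood the other way, with 23.9% of knockout and 17.9% of flox cells, though among male cells alone they were 18.4% and 23.6%. These are shares of sorted cells, so a larger share of one type lowers the others. The libraries mixed cells of both sexes in unequal parts, seen from Xist and from the Y-linked genes Ddx3y, Eif2s3y, Kdm5d and Uty. Of knockout members 14 were female, 28 male, 1 had both and 15 had neither, and of flox members 65 were female, 13 male, 1 had both and 4 had neither. Among female cells, members were 0.895% in the knockout and 2.89% in the flox library, a difference of -2.00 points (-2.85 to -1.14). Among male cells they were 2.03% and 2.42%, a difference of -0.390 points (-2.18 to 0.948), whose interval holds 0.

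Between libraries, most genes of the members were close in level. Over 8323 genes with 20 or more UMIs in the members of the 2 libraries, the median log2 ratio of knockout over flox was 0.02. Of these genes, 837 (10.1%) were at or below 1/1.5 of the flox level and 874 (10.5%) at or above 1.5 times it, which is the background for the counts of list genes below. A stricter rule asked for at least 100 UMIs, 50 CPM and a UMI in 10% of members of the higher library, and an interval beyond 1.5-fold. Of 3282 genes that could meet it, 62 (1.89%) were lower and 15 (0.457%) higher in the knockout library.

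Genes induced by type I interferon were lower in knockout members. The list holds 22 genes, of which Mx1 and Mx2 were not analysed here. Of the 20 measured, 19 were lower, against 47.4% of all genes, and 18 were past 1.5-fold, against a background of 10.1%. Their median log2 ratio was -1.69, and the medians of their lower and upper interval bounds were -2.22 and -0.90. Isg15, a ubiquitin-like antiviral protein, had 110 UMIs in 23 of 58 knockout members, or 103 CPM, against 640 UMIs in 60 of 83 flox members, or 418 CPM, a ratio of 0.247 (0.20 to 0.302). Thinned to 3000 UMIs, 17.2% of knockout and 44.4% of flox members held an Isg15 UMI. Irf7, the factor that amplifies the interferon response, stood at 62.8 CPM in knockout and 222 CPM in flox members, a ratio of 0.283 (0.214 to 0.368).

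The effectors followed. Ifit3 and Ifit2, antiviral proteins of the IFIT family, had ratios of 0.204 (0.143 to 0.283) and 0.161 (0.0831 to 0.286), and 68.3% of the 41 knockout UMIs of Ifit3 came from 1 cell. Rsad2, the antiviral enzyme viperin, stood at 24.4 CPM in 6 of 58 knockout members and 110 CPM in 26 of 83 flox members. Oas1a, a sensor of double-stranded RNA, stood at 30.01 CPM in knockout and 113 CPM in flox members. Usp18, which restrains signalling at the interferon receptor, stood at 21.6 and 83.0 CPM. Ifi27l2a, the most abundant of the list, had a milder ratio of 0.582 (0.537 to 0.630), at 808 and 1389 CPM. Bst2 was the exception over all members, at 445 and 439 CPM, a ratio of 1.01 (0.900 to 1.14). Its ratio was 0.316 (0.209 to 0.460) in female and 1.03 (0.862 to 1.24) in male members. Bst2 is also on the list of 8 plasmacytoid dendritic cell markers. Of the UMIs of that list, 61.8% in knockout and 41.5% in flox members lay in 5 cells. The part of those cells in the Bst2 ratio was not tested.

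**Figure D3:**
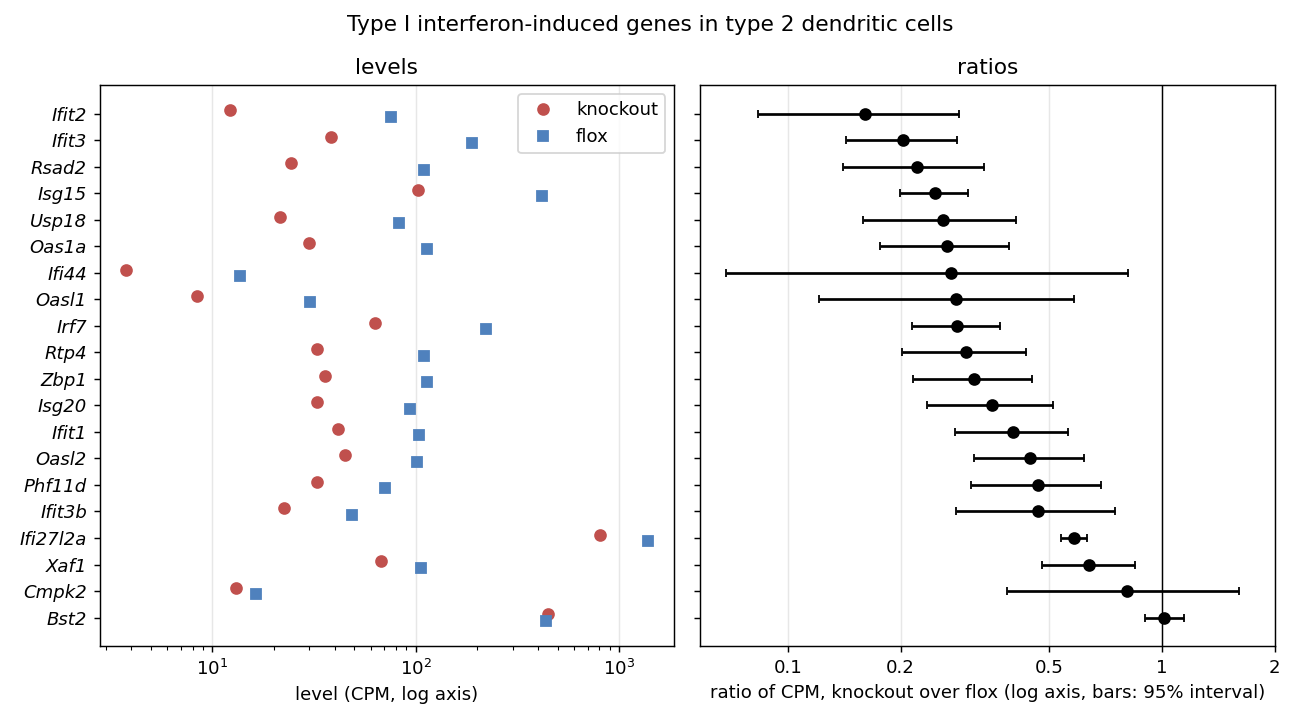
Levels in CPM on a log axis (left, knockout circles and flox squares) and the knockout over flox ratio with its 95% counting interval on a log axis (right) for 20 type I interferon-induced genes in type 2 dendritic cells. All points but that of Bst2 lie left of a ratio of 1, and the intervals of Cmpk2 and Bst2 cross it.

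The stretches of 250 bases before the start of 3 of these genes, from RefSeq on build GRCm38.p6, show the letters on which interferon-activated factors are known to act, and that of Irf7, which shares the difference, shows none. Capitals mark each match, on either strand, to GAAA followed by any 2 bases and GAAA again, where overlapping matches run together; each sequence is written 5′ to 3′ on the strand of its gene. The stretches lie at chr4:156200819-156201068 (minus strand, Isg15), chr19:34583279-34583528 (plus strand, Ifit3), chr12:26456453-26456702 (minus strand, Rsad2) and chr7:141266425-141266674 (minus strand, Irf7).
Isg15: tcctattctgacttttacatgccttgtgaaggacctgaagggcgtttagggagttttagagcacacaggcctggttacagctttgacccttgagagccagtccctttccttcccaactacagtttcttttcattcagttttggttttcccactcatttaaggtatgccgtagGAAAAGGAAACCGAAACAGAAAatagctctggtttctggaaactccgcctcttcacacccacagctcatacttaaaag
Ifit3: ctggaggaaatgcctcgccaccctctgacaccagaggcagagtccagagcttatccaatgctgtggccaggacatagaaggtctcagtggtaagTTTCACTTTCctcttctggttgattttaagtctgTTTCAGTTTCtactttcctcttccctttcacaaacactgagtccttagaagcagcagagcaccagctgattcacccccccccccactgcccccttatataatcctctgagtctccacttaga
Rsad2: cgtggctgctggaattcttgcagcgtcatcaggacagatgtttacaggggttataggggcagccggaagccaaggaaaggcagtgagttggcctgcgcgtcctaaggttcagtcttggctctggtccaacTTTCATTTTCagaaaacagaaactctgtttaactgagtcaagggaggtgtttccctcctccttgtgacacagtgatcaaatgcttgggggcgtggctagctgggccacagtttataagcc
Irf7: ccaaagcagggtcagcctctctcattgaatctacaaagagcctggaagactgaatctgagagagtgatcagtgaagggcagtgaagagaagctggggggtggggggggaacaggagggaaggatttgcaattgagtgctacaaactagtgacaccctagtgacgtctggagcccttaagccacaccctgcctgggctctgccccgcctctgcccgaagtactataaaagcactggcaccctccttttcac
Isg15 held 3 overlapping matches between 78 and 57 bases before its start, Ifit3 held 2, from 156 and from 122 bases before its start, and Rsad2 held 1, from 120 bases before it. Of the 22 genes on the type I interferon list, 16 matched the RefSeq promoter table, and 7 of these (43.8%) held the motif, against 936 of 27025 genes (3.46%) in the whole table. It stood in 8 of 11 matched genes (72.7%) on the interferon-gamma list and in 0 of 13 on the list of immediate early and heat shock genes. Bst2, whose level differed little over all members, held 2 matches. A match is a run of letters, and its use in these cells was not measured.

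Cell by cell, the 20 genes together made up a median of 14.0 UMIs per 10000 in knockout members (0.789 to 104) and 25.8 in flox members (2.20 to 272). The ranges overlapped widely. At least 20 per 10000 were held by 20 of 58 knockout members (34.5%, 22.5 to 48.1) and 48 of 83 flox members (57.8%, 46.5 to 68.6). The difference stood within each sex. Female members had 1131 CPM of the summed list in the knockout and 3023 CPM in the flox library, and male members 2345 and 7340 CPM. The list median was -2.30 in female and -2.61 in male members, each lower than the -1.69 over all members.

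The same list was compared in other gated cells. Its median log2 ratio was -1.66 in T cells, -1.11 in classical monocytes, -0.52 in B cells and -0.28 in type 1 dendritic cells, where the median upper bound was 0.33. The median of all genes lay between -0.010 in B cells and 0.036 in monocytes. Within sexes the list median was -1.51 in female and -2.93 in male T cells, -0.61 and -2.29 in monocytes and -1.56 and -0.63 in type 1 dendritic cells. In B cells it was -0.047 in female cells, with 8 genes higher and 10 lower, and -1.77 in male cells. Whether these differences differ from that in the members was not tested. Free RNA carried interferon-induced transcripts too: flox barcodes of 100 UMIs or fewer held Isg15 at 299 CPM. The knockout file holds no barcode under 500 UMIs, so its free RNA was not measured. Subtracting the flox profile from both libraries left the list median at -1.79, and leaving out members with genes of other cells, described below, gave -1.18 (bounds -1.71 and -0.60).

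**Figure D4:**
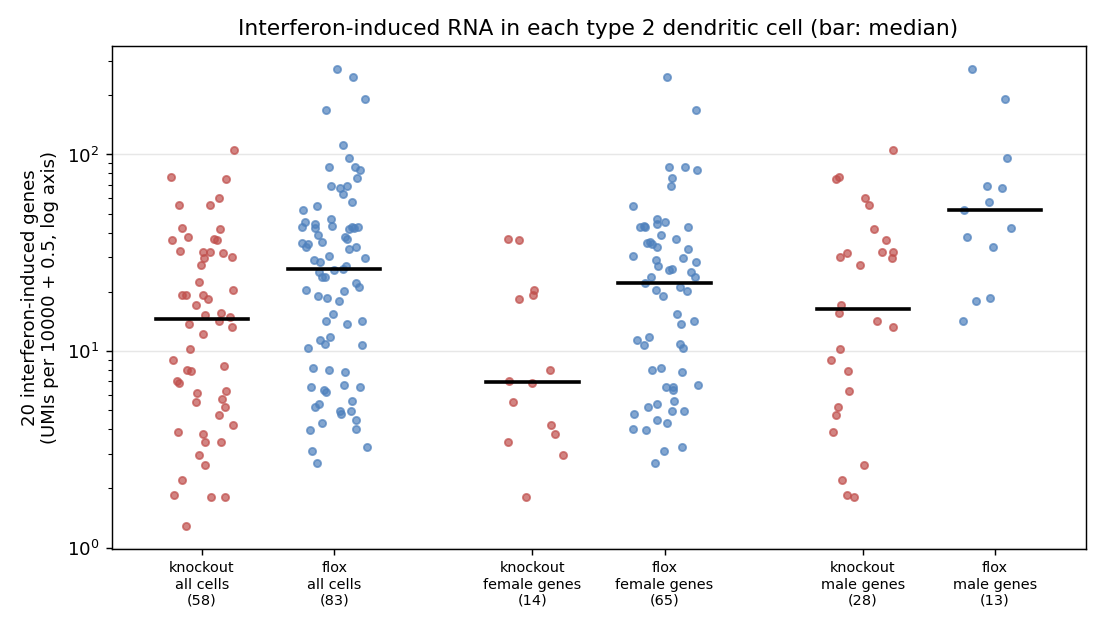
Summed UMIs of 20 type I interferon-induced genes per 10000 UMIs in each type 2 dendritic cell, with 0.5 added, on a log axis, for all cells and for cells with female or male genes, knockout left of flox in each pair. Bars mark medians, which lie lower in knockout cells in all 3 pairs (14.0 against 25.8 per 10000 over all cells), while single cells overlap.

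Receptors and signal genes of the pathway were split. Ifnar1 and Ifnar2, the receptor chains for type I interferon, had ratios of 1.05 (0.785 to 1.40) and 1.04 (0.854 to 1.26), and Irf9 had 0.937 (0.719 to 1.22). Stat2, which is interferon-induced itself, stood at 63.8 CPM in knockout members, against 108 CPM in flox members. Socs1, a feedback inhibitor, had a ratio of 0.350 (0.203 to 0.576). The cytosolic RNA sensors Ddx58 (RIG-I) and Ifih1 (MDA5), which interferon also induces, had ratios of 0.375 (0.238 to 0.574) and 0.380 (0.254 to 0.556). Over 12 measured genes of this list the median was -0.02, with 6 higher and 6 lower. On the interferon-gamma list of 14 genes, 7 of 8 measured genes were lower, 5 past 1.5-fold, with a median of -0.71. The medians of their lower and upper interval bounds were -1.62 and 0.27, which hold 0. Irgm1, a GTPase of cell defence, had a ratio of 0.501 (0.347 to 0.711), and Irf1 was the one higher gene, at 1.21 (1.03 to 1.43).

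Antigen presentation differed less. The class II genes H2-Aa, H2-Ab1 and H2-Eb1 stood at 8764, 8361 and 8284 CPM in knockout members and 8988, 8952 and 8433 CPM in flox members. H2-Aa is a gene of the gate. The invariant chain gene Cd74 stood at 24220 and 23440 CPM. Of 13 measured class II genes 10 were lower, none past 1.5-fold, and 1 was higher past it, H2-Ob, a brake on peptide loading, with a ratio of 1.69 (1.34 to 2.13). Of 15 class I genes 13 were lower but only 2 past 1.5-fold, with a median of -0.26. B2m, the light chain of class I molecules, stood at 1275 CPM in knockout and 1688 CPM in flox members. Nlrc5, the transactivator of class I genes, had a ratio of 0.294 (0.163 to 0.499).

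Chemokine genes had a median log2 ratio of -0.77, with 9 of 12 lower, 8 past 1.5-fold against a background of 10.1%. These genes rested on few cells. Ccl5, a chemokine for T cells, had 18 UMIs in 12 of 58 knockout members and 99 UMIs in 30 of 83 flox members. Cxcl16, the ligand of CXCR6, was broader, with 96.6 CPM in 31 knockout members and 160 CPM in 52 flox members, a ratio of 0.603 (0.474 to 0.762). Of the 68 flox UMIs of Ccl7, 95.6% came from 1 cell. Ccl6 was higher, at 250 CPM in knockout and 161 CPM in flox members. With cells thinned to 3000 UMIs before gating, which changed both the members and the depth, the list median was 0.13, and the log2 ratios were -0.30 for Ccl5 and -0.010 for Cxcl16. Of the cytokine genes 6 were measured, 5 of them higher, with a median of 0.27, and Tgfb1 was the one lower gene, with a ratio of 0.688 (0.591 to 0.799). Il12b and Il23a, subunits of cytokines that steer helper T cells, had no UMI in any member.

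Immediate early and heat shock genes were higher in knockout members for 13 of 16 genes, 4 of them past 1.5-fold against a background of 10.5%, with a median of 0.31. Hspa1a and Hspa1b, the inducible HSP70 chaperone genes, stood at 269 CPM and 184 CPM in knockout members, against 90.8 CPM and 56.2 CPM in flox members, ratios of 2.96 (2.41 to 3.65) and 3.27 (2.53 to 4.26). They are near-identical copies, so counting could split their reads. Hspa1a stood at 2.85 (2.03 to 3.98) in female and 3.32 (2.02 to 5.79) in male members, while for Hspa1b both within-sex intervals held 1, at 1.24 (0.578 to 2.43) and 1.35 (0.908 to 2.07). Gating on cells thinned to 3000 UMIs gave log2 ratios of 0.11 for Hspa1a and 0.77 for Hspa1b. Dnajb1, a partner of HSP70, had a ratio of 2.15 (1.43 to 3.26), and Fos, an immediate early factor, stood at 3397 and 2199 CPM. The cause of the difference was not tested. The list was higher in classical monocytes (median 0.23), T cells (0.22) and type 1 dendritic cells (0.21) too, and near 0 in B cells (0.03). In male members its median was 0.04.

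The remaining lists were mostly near the median of all genes. Transcription factors of dendritic cells had a median of 0.10 over 21 genes, with 1 past 1.5-fold in each direction. Among them Irf4, which type 2 cells depend on, stood at 55.3 CPM in knockout and 51.6 CPM in flox members, and Klf4 at 472 and 403 CPM. Co-stimulation genes had a median of -0.21, with Cd86 at a ratio of 0.870 (0.769 to 0.984), Cd40 at 0.450 (0.281 to 0.701) and Cd274, the gene of PD-L1, at 1.96 (1.29 to 3.01). NF-kB feedback genes had a median of -0.18, with 13 of 15 lower but 1 past 1.5-fold, and Nfkb1 at 0.649 (0.569 to 0.739). That median was 0.29 in female members, with 12 of 15 genes higher, and -0.51 in male members, with 13 of 15 lower. Medians were 0.12 for migration receptors, -0.08 for C-type lectins, -0.24 for pattern recognition, 0.21 for genes of the Clec10a-rich subset described in spleen, -0.03 for the mature dendritic cell programme, -0.04 for antioxidant genes and -0.16 for growth factor and cytokine receptors. Cell cycle (-0.58 over 11 genes), complement (-0.58 over 8) and growth factors (-0.58 over 6) lay lower. The cell cycle list rested on few cells, with 49.0% of its knockout and 67.5% of its flox UMIs in 5 cells, while at least 5 UMIs of the growth factor list were held by 44 of 58 knockout and 67 of 83 flox members. Lists for a Tbx21-linked subset and for IL-17 receptors had fewer than 5 measured genes.

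**Figure D5:**
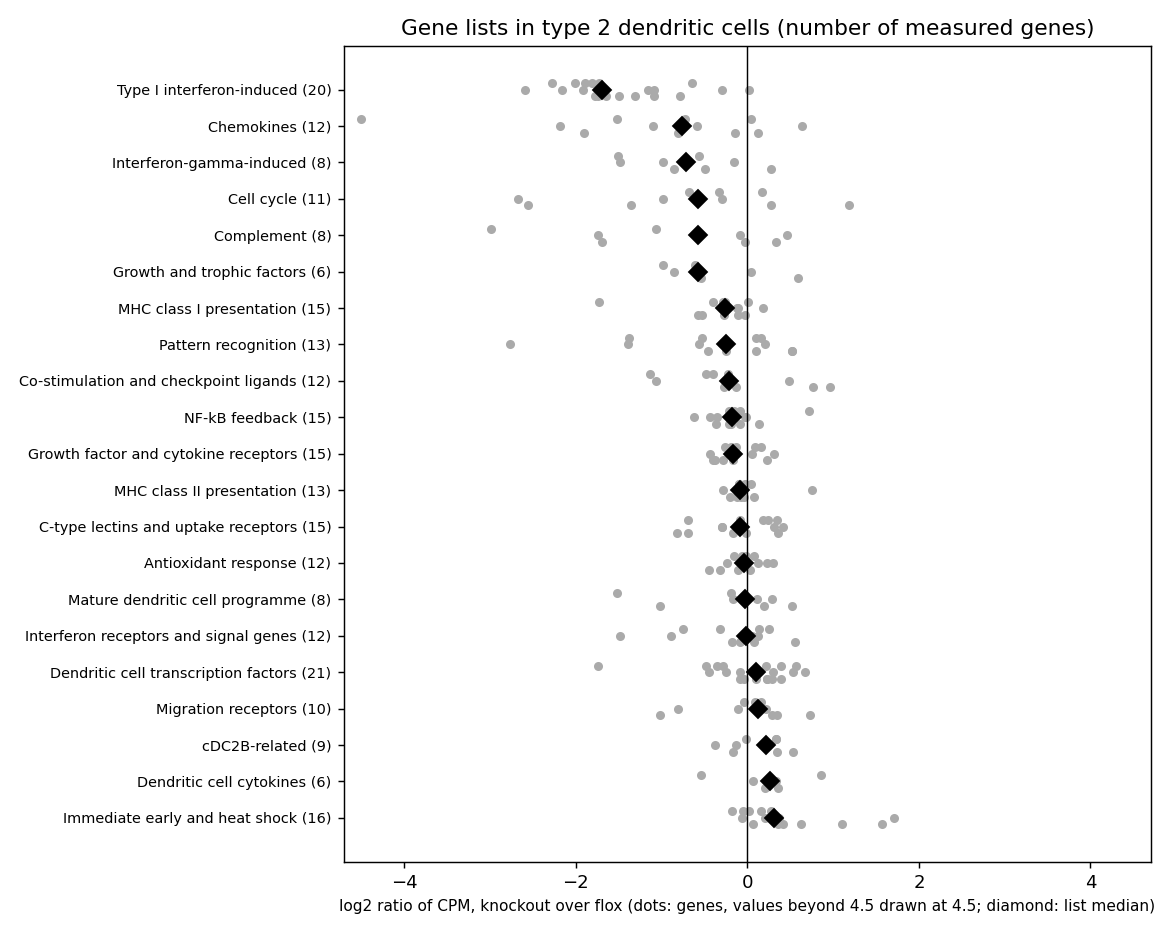
Log2 ratio of knockout over flox in type 2 dendritic cells for the measured genes (dots) and the median (diamond) of 21 functional gene lists, with the number of measured genes in parentheses. The type I interferon list lies lowest at -1.69, the immediate early and heat shock list highest at 0.31.

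Il17ra itself was measured in 36 of 58 knockout members at 76.0 CPM and in 47 of 83 flox members at 87.6 CPM, a ratio of 0.867 (0.650 to 1.15). Its log2 ratio was 0.50 in female and 0.090 in male members. Counts from the 3′ end do not show whether exons upstream were removed, so this value checks neither label. In classical monocytes the gene stood at 233 CPM in the knockout and 238 CPM in the flox library. Nfkbiz, a gene that IL-17 is known to induce, stood at 200 CPM in knockout and 203 CPM in flox members, a ratio of 0.986 (0.824 to 1.18).

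The strict rule named 12 genes per direction by the size of the ratio, some of them on the lists above. Highest in knockout members was Tppp3, which binds microtubules, with 88 UMIs in 15 of 58 knockout members and 21 UMIs in 12 of 83 flox members, a ratio of 6.01 (3.70 to 10.2), although 42.0% of the knockout UMIs came from 1 cell. After the HSP70 genes came Atp2b4, a calcium pump (2.68), Fn1, fibronectin (2.63), Klrb1b, a lectin receptor (2.42), Ctsl, a lysosomal protease (2.30), Fgfr1 (2.27), Brix1 (2.25), Txnip (2.24), Snhg1 (2.17) and Unc119 (2.13). Klrb1b, Txnip, Snhg1 and Unc119 were higher within each sex with intervals above 1. Gating on thinned cells gave log2 ratios of 0.10 for Klrb1b, 0.77 for Txnip, 0.69 for Snhg1 and 0.44 for Unc119. For Tppp3 (1.49, 0.430 to 4.21), Fn1 (1.10, 0.441 to 2.39), Brix1 (1.47, 0.676 to 2.93), Ctsl (0.941, 0.478 to 1.72), Fgfr1 (0.768, 0.234 to 1.98) and Atp2b4 (2.13, 0.808 to 5.11) the interval held 1 in female members, and for Atp2b4 (1.17, 0.654 to 2.20) in male members too. Of the Fn1 UMIs in the knockout library 53.4% came from 1 cell, and of the flox Ctsl UMIs 55.1%. Txnip, which restrains thioredoxin and glucose uptake, was broad, in 39 of 58 knockout members at 164 CPM and in 36 of 83 flox members at 73.2 CPM.

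Lower in knockout members by this rule were further interferon-inducible genes, Spon1 and Creb5, and genes with a large part of their flox UMIs in a single cell. Slfn1, a schlafen gene, had 6 UMIs in 5 of 58 knockout members and 128 UMIs in 23 of 83 flox members, 14.9-fold lower (6.65 to 41.3). Ifi211 and Ifi204, of the family of cytosolic DNA sensors, were 6.90-fold (4.40 to 11.4) and 4.16-fold (2.97 to 5.98) lower. Gating on thinned cells gave log2 ratios of -0.83 for Ifi211, -0.18 for Ifi204 and -1.31 for Slfn1. Spon1, a matrix protein, and Creb5, a transcription factor, were 5.05-fold (2.98 to 9.13) and 4.51-fold (2.69 to 8.02) lower, seen in 24 and 32 of 83 flox members. Ifit2, Ifit3 and Rsad2, given above, met the rule as well. Hist1h2ap, a histone gene, had 436 flox UMIs of which 96.6% came from 1 cell, and Stmn1, a gene of dividing cells, 130 of which 80.8% did. Of 218 flox UMIs of Apoe 65.1%, and of 538 of Ly6c2 40.1%, came from 1 cell each.

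Some members carried genes of other cells. At least 5 UMIs of the macrophage genes C1qa, C1qb and C1qc were held by 2 of 58 knockout and 3 of 83 flox members, of the plasmacytoid dendritic cell genes Siglech, Cox6a2, Ccr9 and Klk1 by 3 and 3, and of the monocyte gene Ly6c2 by 4 and 8. The macrophage list of 11 genes summed to 200 CPM in knockout and 546 CPM in flox members, with a median log2 ratio of -1.38, and 77.3% of its flox UMIs lay in 5 cells. The B cell genes Cd79b, Ms4a1 and Ighm reached 5 UMIs in 9 knockout and 6 flox members. The T cell genes Cd3d, Cd3g and Trbc2 reached it in 0 and 0. The whole list of 8 T cell genes reached it in 2 knockout members and 1 flox member, with up to 12 and 11 UMIs in a cell. No UMI of the 7 mast cell and basophil genes was seen in knockout members and 5 in flox members, and RPE genes summed to 14.1 and 10.5 CPM. Leaving out the 7 knockout and 11 flox members with macrophage, plasmacytoid or Ly6c2 UMIs left 51 and 72 cells, in which Ly6c2 had a log2 ratio of 0.14. Scrublet called 56 of 3982 knockout cells and 17 of 3418 flox cells doublets, and 0 members. The file headers name different versions of the counting software for the libraries. Across 10 equal bins of genes by intron length, the median log2 ratio ran from 0.07 in the bin of the shortest to -0.13 in that of the longest, and the part of software in any difference was not tested.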

How the data were processed

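CD45+ cells were profiled by droplet 3′ single-cell RNA sequencing in 1 knockout and 1 flox library. The deposited count matrices hold whole UMI counts per gene and barcode, as the authors made them. Reads were counted against mm10 with Cell Ranger, per the submitters' processing notes, and the file headers name version 7.0.1 for the knockout and version 4 for the flox library. The deposited knockout matrix lists 4096 barcodes and 35944330 UMIs, and the flox matrix 1002803 barcodes and 38623933 UMIs.

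Barcodes were filtered and gated as described with the results, and UMIs were summed over the members of each library and divided by their total (1066382 in the knockout and 1530105 in the flox library) to give CPM. Intervals at 95% are exact Poisson for levels, conditional Clopper-Pearson for ratios, exact binomial for shares and Newcombe for differences of shares. A share of 0 allows up to 5.17% of knockout and 3.61% of flox members (3 counts). Log2 ratios had 0.5 UMIs added to each sum. A list gene counted as measured with 20 or more UMIs over the libraries, and a list was summarised with at least 5 such genes. Up to 12 genes per direction were named by the strict rule given with the results, leaving out sex-linked marker, mitochondrial, immunoglobulin, T cell receptor and haemoglobin genes and those of the gate. Genes of the gate, the markers and the lists could also be named, as could the 15 genes with the largest excess over type 1 dendritic cells and monocytes. The members, the lists and the tests were chosen with earlier results of these data known.

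Alternatives changed the gate, depth, scaling, sex, doublets (Scrublet in scanpy 1.11.5) and free RNA. Leaving out members with genes of other cells, or the member with the most Hist1h2ap UMIs, was added after seeing the data. The calculations used Python 3.11.15, NumPy 2.4.6, SciPy 1.17.1 and pandas 2.3.3 and were tested on simulated data. Promoter windows of 250 bases came from RefSeq on GRCm38.p6, in which 6662 of 8323 measured genes matched by symbol. Some genes are not reported here.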

Additional observations from a re-analysis of the deposited data

Results flagged for a closer look

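Several values had opposite signs in cells with female genes (14 knockout and 65 flox members) and cells with male genes (28 knockout and 13 flox members). The difference between the sexes was not tested, and with 1 library per group it cannot be told apart from a difference between the mice. On the log2 scale of knockout over flox, Ifitm1 was -0.90 in female members and 1.07 in male members, and Dab2 was -0.63 in female and 0.50 in male members. Ifitm1 stood at 246 CPM in knockout and 464 CPM in flox female members, and at 1191 CPM in knockout and 566 CPM in flox male members. Of the 59 Ifitm1 UMIs in female knockout members, 49 came from a single cell. Kit, which stood with Ifitm1 in single cells, was -1.17 in female and 2.91 in male members. In male flox members Kit was seen in a single cell, with 2 UMIs, so its male value is near the floor. Il1b was -0.30 in female and 0.41 in male members. Cd209a, a gene of the gate, was 0.71 in female and -0.54 in male members. The median of the plasmacytoid dendritic cell markers was -2.30 in female and 3.41 in male members, and 3 knockout and 3 flox members carried at least 5 UMIs of Siglech, Cox6a2, Ccr9 and Klk1.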

How the results depend on the processing

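The type I interferon median stayed negative under all 19 alternatives, between -2.61 in male and -1.18 without members holding genes of other cells, and was -2.30 in female members. With at least 4 lectin UMIs the strict rule named 39 lower genes, and the values turned to 0.40 for complement, 2.28 for macrophage genes, 0.33 for Hist1h2ap and 0.18 for Stmn1. With a monocyte sum of 0 the chemokine median was -1.60. Gating thinned cells left 1 higher and 1 lower gene past the strict rule, and medians of 0.13 for chemokines and 0.13 for immediate early genes. It turned the monocyte median to 0.31, Hist1h2ap to 0.44, Ly6c2 to 0.31, Stmn1 to 2.31, Ifitm1 to -0.076, Cd74 to -0.095 and Cxcl10 to 1.66. In female cells alone the share difference was -2.00 points, 35 genes were named lower, and values turned to -0.043 for Ctsl, -0.27 for Fgfr1, -0.63 for Dab2, -0.90 for Ifitm1, 0.48 for Tnip3, 0.014 for H2-Ab1 and 0.31 for Cxcl10. In male cells alone the immediate early median was 0.040, and complement turned to 0.32, Apoe to 0.51 and Tnip3 to 1.96. Averaging each cell's CPM turned Cd74 to -0.024. Without the highest cell of each gene 9 genes were named higher. Without members holding genes of other cells 9 were named higher and 31 lower, and Ly6c2 turned to 0.14. The cause of each change was not tested. Apart from these, 50 list medians and single-gene log2 ratios whose interval over all members holds 0 had the other sign under an alternative, 13 of them in female and 7 in male cells alone. They include lectins, migration receptors, pattern recognition and NF-kB feedback. Naming counts could not be had from averaged CPM or with 2 UMIs added. No paired analysis was possible because each group has 1 library.

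Depth limited the low genes: a gene under 20 UMIs in both libraries together was not compared, and the thinned cells kept 3000 UMIs each. Every interval covers counting error only.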
